A study of Drosophila melanogaster with 10 samples.

Results

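The genes described here are 45 fly genes of axon guidance and cell adhesion, picked by name. A gene was measured if the array's annotation gave it a probe set, that is a group of short probes read out together, carrying its symbol and no other. This held for 37 of the 45, out of 11982 genes with such a probe set. The other 8 (robo2, robo3, NetA, Sema1b, Sema2a, PlexA, Fas2 and Fas3) had none in the annotation used here and were not analysed. Where a gene had several, its brightest probe set on average was used, and the others are given beside it.

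The arrays held RNA of sorted cells from Drosophila melanogaster embryo cultures, with 5 arrays of a strain called Cha here and 5 of a strain called Gad. In Cha, 7.4 kb of choline acetyltransferase regulatory DNA drove Gal4, which switched on UAS-GFP, a green fluorescent reporter. In Gad, labelled 2.1 kb Gad1(s)-RFP, glutamate decarboxylase regulatory DNA drove a red reporter. Both strains were treated alike: embryos laid by adults of 2 weeks were dissociated as early gastrulae, before any neuron had formed, and their cells were cultured for 5 to 7 days and sorted. Strain, driver type and reporter colour cannot be told apart in this comparison, because each group had its own. Values are the authors' log2 values, so a difference of 1 is a doubling, and every difference is Cha minus Gad.

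Growing axons read cues with receptors on the growth cone. Slit and semaphorins mostly repel, netrins attract through Frazzled and repel through Unc-5, and Robo receptors detect Slit unless Commissureless keeps them off the surface. Adhesion proteins such as teneurins, Dscams, cadherins and the Beat, Side and Kirre families then sort axons into bundles and match synaptic partners. The comparison asked how these genes differ between cells marked through cholinergic and through GABAergic regulatory DNA.

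Most members that passed the test were higher in Cha. At an adjusted p under 0.05 (limma, Benjamini-Hochberg over all 11982 genes), 10 of the 37 members had higher levels in Cha and 2 had higher levels in Gad. The background was 8.21% of all genes higher in Cha and 10.2% higher in Gad, 18.5% together, against 32.4% of the members. The sets were unlike in brightness. Of the 11982 genes, 2459 were dim (defined below) on all 10 arrays, against 1 of the 37 members. Without dim probe sets most calls stayed, with 961 genes higher in Cha and 1217 in Gad, and 9 and 2 members. The share among brighter genes was thus above 18.5%, and the excess of the members is overstated by this comparison. The teneurin gene Ten-a, the Derailed family gene Drl-2, kirre and the phosphatase gene Ptp99A were more than doubled in Cha, and Sema1a was more than doubled in Gad; 5.88% of all genes passed with a difference of that size. The median difference was 0.32 over the members and 0.04 over all genes. Less RNA per cell and fewer cells of a type cannot be told apart in such sorted pools. The groups did not overlap in 6 members, all with Cha above Gad. Over all genes, 5.93% had Cha wholly above Gad and 7.6% had Gad wholly above Cha.

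**Figure D1:**
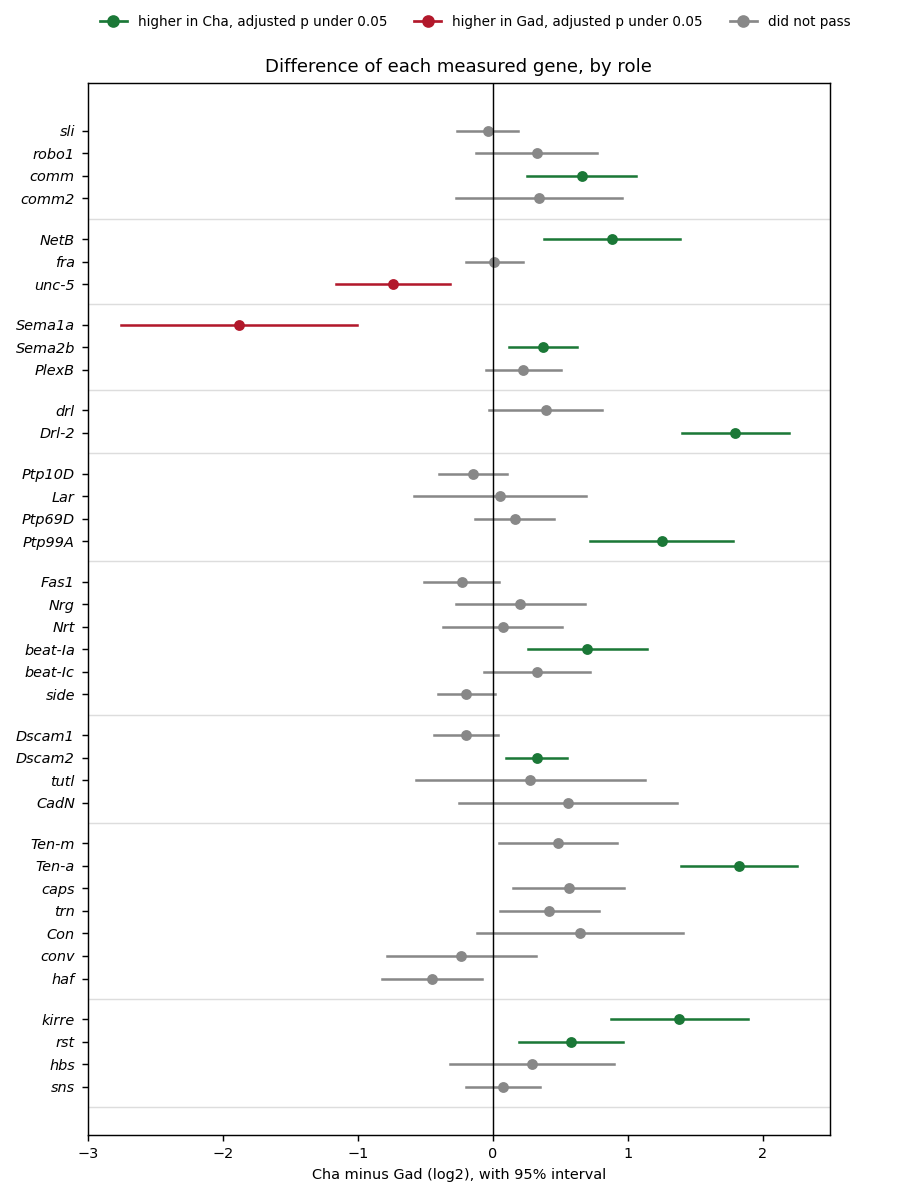
Cha minus Gad for the 37 measured genes on the log2 scale, ordered by role from Slit and Robo genes at the top to kirre and its relatives at the bottom; points are fitted differences, lines are 95% intervals, and colour shows the direction of those with an adjusted p under 0.05. Ten-a (1.82) and Drl-2 (1.80) lie farthest toward Cha, and Sema1a (-1.88) lies farthest toward Gad.

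The arrays themselves set some limits. The fly's own genes whose regulatory DNA drove the reporters did not separate the groups. ChAT stood at 11.39 in Cha and 10.71 in Gad (adjusted p = 0.067), and Gad1 at 12.49 in Cha and 12.37 in Gad (adjusted p = 0.626). Directions therefore refer to array labels. Of 13 neuronal marker genes, 6 passed toward Cha and 0 toward Gad. Their mean log2 value ran from 9.17 to 9.83 over Cha arrays and from 8.17 to 9.26 over Gad arrays. The marker elav was at 9.51 in Cha and 9.10 in Gad (adjusted p = 0.536), and nSyb at 8.51 in Cha and 7.77 in Gad (adjusted p = 0.0435). Glial markers lay the other way, with 1 of 16 passing toward Cha and 7 toward Gad, and mean values of 8.23 to 8.43 in Cha and 8.59 to 8.85 in Gad. The glial factor repo was at 7.89 in Cha and 8.76 in Gad (adjusted p = 0.0156). Muscle markers (0 higher in Cha and 6 in Gad of 14, mean 6.79 to 7.90 in Cha and 7.64 to 8.48 in Gad) and neuroblast markers (0 and 4 of 11, mean 7.56 to 8.51 in Cha and 8.57 to 9.04 in Gad) followed the glial direction. The neuroblast factor wor was at 9.29 in Cha and 10.47 in Gad (adjusted p = 0.0589). Of 8 fat body markers, 0 passed toward Cha and 4 toward Gad (mean 7.49 to 8.35 in Cha and 8.98 to 10.32 in Gad), with Lsp2 at 4.47 in Cha and 9.11 in Gad (adjusted p = 0.0242). Blood cell markers passed 2 times toward Cha and 4 times toward Gad of 17 (mean 7.42 to 8.29 in Cha and 7.72 to 8.09 in Gad). The hemocyte gene Hml was at 7.55 in Cha and 6.71 in Gad (adjusted p = 0.0747). Of the blood markers that passed, named after their values were seen, the crystal cell genes PPO1 (3.39, adjusted p = 0.000197) and PPO2 (1.73, adjusted p = 0.00143) were higher in Cha, and srp (-1.73, adjusted p = 0.00165), LanA (-0.93, adjusted p = 0.00227), vkg (-1.95, adjusted p = 0.0052) and Col4a1 (-1.65, adjusted p = 0.0141) were higher in Gad. Epidermal and tracheal markers gave 0 and 3 of 12 (mean 7.66 to 8.23 in Cha and 8.05 to 8.52 in Gad), with shg at 4.69 in Cha and 5.28 in Gad (adjusted p = 0.0344). The median difference was 0.74 over the neuronal markers and 0.32 over the members. The part of the neuronal share and of these other cell types in the differences below was not tested.

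Among the Slit and Robo genes, only comm passed. It encodes Commissureless, which diverts Robo from the cell surface. comm had values of 10.66, 11.00, 10.93, 10.49 and 11.60 in Cha arrays, against 10.37, 10.09, 10.22, 10.39 and 10.32 in Gad arrays. Every Cha array thus lay above every Gad array, by as little as the gap between Cha replicate 4 and Gad replicate 4. The difference was 0.66 (SE 0.18, adjusted p = 0.0296), but it missed the threshold in 6 of the 10 refits with 1 array removed, with adjusted p up to 0.0712 without Gad replicate 2. robo1, the receptor, stood at 9.71 ± 0.45 in Cha and 9.39 ± 0.22 in Gad (SD, n = 5), and the interval of the difference ran from -0.12 to 0.77 (adjusted p = 0.302). It passed without Cha replicate 4 (0.51, adjusted p = 0.0325). sli, the ligand, was dim on all 10 arrays (4.17 in Cha and 4.20 in Gad) on its brighter probe set. Dim means at or below percentile 40 of the array, where differences are compressed. Its second probe set was dim as well, so nothing can be read about Slit from these arrays.

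comm2 lies close to comm on the chromosome, with 2 genes between them in the Release 6 annotation, and encodes a related protein. Its values were 8.13, 7.41, 7.74, 8.92 and 7.12 in Cha arrays and 7.37, 7.60, 7.62, 7.38 and 7.62 in Gad arrays. Gad arrays stayed within a narrow band, while Cha arrays spread on both sides of it. Cha replicate 5 was the highest Cha array for comm and the lowest for comm2, and Cha replicate 4 the reverse. The difference of comm2 (0.34, interval -0.27 to 0.96, adjusted p = 0.441) did not pass.

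In the netrin system, a ligand and a receptor passed in opposite directions. NetB encodes a secreted netrin, and its values were 10.80, 10.78, 10.64, 10.05 and 9.85 in Cha arrays and 9.70, 8.94, 9.49, 9.88 and 9.69 in Gad arrays. Cha arrays were higher except that Cha replicate 5 lay just under Gad replicate 4. The difference was 0.88 (1.84-fold, SE 0.23, adjusted p = 0.0223), and the call held in 7 of the 10 refits with 1 array removed.

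unc-5, the receptor for netrin repulsion, went the other way, with 10.82, 11.31, 10.90, 10.42 and 11.33 in Cha arrays and 12.09, 11.32, 11.70, 11.67 and 11.69 in Gad arrays. Only Gad replicate 2 reached into the range of the Cha arrays. The difference of -0.74 (SE 0.19, adjusted p = 0.0221) held in 8 of the 10 refits with 1 array removed. A second, much dimmer unc-5 probe set differed by 0.11 (6.25 in Cha and 6.15 in Gad, adjusted p = 0.484), and the mean of both gave -0.31 (adjusted p = 0.116). fra, which encodes Frazzled, the receptor for netrin attraction, had one of the narrowest intervals of the set. Its means were 10.26 ± 0.17 in Cha and 10.25 ± 0.06 in Gad (SD, n = 5), a difference of 0.01 with an interval from -0.20 to 0.22 (adjusted p = 0.949). In fly embryos unc-5 is known from some glia as well as from neurons, and of 16 glial markers 1 was higher in Cha and 7 in Gad; their part in the unc-5 difference was not tested.

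Among the semaphorins, Sema1a and Sema2b differed in opposite directions. Sema1a encodes a transmembrane semaphorin that signals through Plexin A. Its values were 5.19, 4.43, 4.76, 4.15 and 4.83 in Cha arrays and 6.83, 4.90, 7.13, 7.19 and 6.70 in Gad arrays. Gad replicate 2 stood with the Cha arrays, and the other 4 Gad arrays lay far above them. In the marker lists, counted after their values were seen, Gad replicate 2 was the lowest Gad array for 11 of 13 neuronal, 8 of 14 muscle, 5 of 11 neuroblast, 4 of 12 epidermal and tracheal, 2 of 8 fat body, 1 of 16 glial and 1 of 17 blood markers, against 23.3% of all genes. The fat body gene Lsp2 was at 4.67 in Gad replicate 2 and at 7.72 to 12.32 in the other Gad arrays, against 4.24 to 4.69 in Cha arrays. The muscle gene up was at 5.30 in Gad replicate 2 and at 6.33 to 7.20 in the other Gad arrays. In Cha arrays up was at 4.96 to 5.82. The neuronal gene elav was at 7.59 in Gad replicate 2 and at 9.08 to 9.71 in the other Gad arrays. In Cha arrays elav was at 8.70 to 10.08. The muscle gene Zasp52 went the other way, with Gad replicate 2 its highest Gad array (10.39). All of these genes were picked after their values were seen. The part of these cell types in the Sema1a difference was not tested. The difference was -1.88 (3.67-fold, SE 0.40, adjusted p = 0.00906), the largest in size of the 37, and it passed in all 10 refits with 1 array removed. Without Gad replicate 2 it was -2.29 (adjusted p = 0.000242). Sema1a was dim on 3 Cha arrays, so the fold is uncertain. Without Cha replicate 2 and Gad replicate 5, whose descriptions share a letter code, the adjusted p was 0.0565.

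Sema2b, a secreted semaphorin, had values of 5.10, 5.53, 5.46, 5.30 and 5.35 in Cha arrays and 5.05, 4.68, 5.04, 5.01 and 5.11 in Gad arrays. The Cha values lay higher, with Cha replicate 1 and Gad replicate 5 at about the same level. The difference of 0.37 (SE 0.11, adjusted p = 0.0427) was small, kept its call in only 2 of the 10 refits with 1 array removed, and was 0.01 on a second, dimmer probe set. The call was also lost after a second quantile normalization (adjusted p = 0.0513) and for the mean of both probe sets (0.19, adjusted p = 0.227). Levels were low (means of 5.35 in Cha and 4.98 in Gad), and Gad replicate 2 was dim. PlexB, the plexin for secreted semaphorins, stood at 9.39 ± 0.28 in Cha and 9.17 ± 0.04 in Gad (SD, n = 5; difference 0.23, interval -0.05 to 0.51, adjusted p = 0.249). Its 3 other probe sets gave 0.06 to 0.36, and none passed.

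Both measured Derailed genes had higher means in Cha, but only Drl-2 passed. They encode receptors of the Ryk family, and Derailed is known to bind Wnt5. Drl-2 had values of 9.61, 9.78, 9.10, 8.93 and 9.45 in Cha arrays and 7.58, 7.35, 7.30, 7.89 and 7.78 in Gad arrays. The groups were separated by more than 1 on the log2 scale between the lowest Cha and the highest Gad array. The difference was 1.80 (3.47-fold, SE 0.18, adjusted p = 0.000197) and passed in all 10 refits with 1 array removed. A dim second probe set differed by 0.46 in the same direction (adjusted p = 0.0252). drl had 10.31, 10.46, 9.75, 9.50 and 10.05 in Cha arrays and 9.57, 9.29, 9.52, 9.92 and 9.81 in Gad arrays, with overlapping groups (difference 0.39, interval -0.03 to 0.81, adjusted p = 0.187).

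Of the 4 receptor tyrosine phosphatase genes, whose products steer motor and photoreceptor axons, Ptp99A passed. It had values of 9.70, 10.12, 9.61, 9.47 and 9.65 in Cha arrays and 7.99, 7.84, 8.46, 9.12 and 8.89 in Gad arrays. Cha arrays lay close together and above all Gad arrays, which spread over more than 1 on the log2 scale. The difference was 1.25 (2.38-fold, SE 0.24, adjusted p = 0.0058) and passed in all 10 refits with 1 array removed.

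Ptp99A had 5 other probe sets, which did not all follow. One of them, dimmer, had 6.94, 6.81, 6.49, 5.86 and 6.76 in Cha arrays and 4.49, 4.18, 4.82, 4.62 and 4.51 in Gad arrays, a difference of 2.05 (adjusted p = 0.000176). It was dim on 4 Gad arrays. Another, at 6.69 in Cha and 7.14 in Gad, differed by -0.45 (adjusted p = 0.104), and 3 were dim on all 10 arrays. The other phosphatase genes did not pass, and the interval of Lar was wide. Lar had 8.72, 9.00, 8.62, 7.12 and 8.37 in Cha arrays and 8.21, 8.20, 8.29, 8.42 and 8.44 in Gad arrays, so that Cha replicate 4 alone lay well below both groups (difference 0.05, interval -0.59 to 0.69, adjusted p = 0.926). Ptp10D differed by -0.15 (interval -0.40 to 0.10, adjusted p = 0.412) and Ptp69D by 0.16 (interval -0.13 to 0.46, adjusted p = 0.452).

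**Figure D2:**
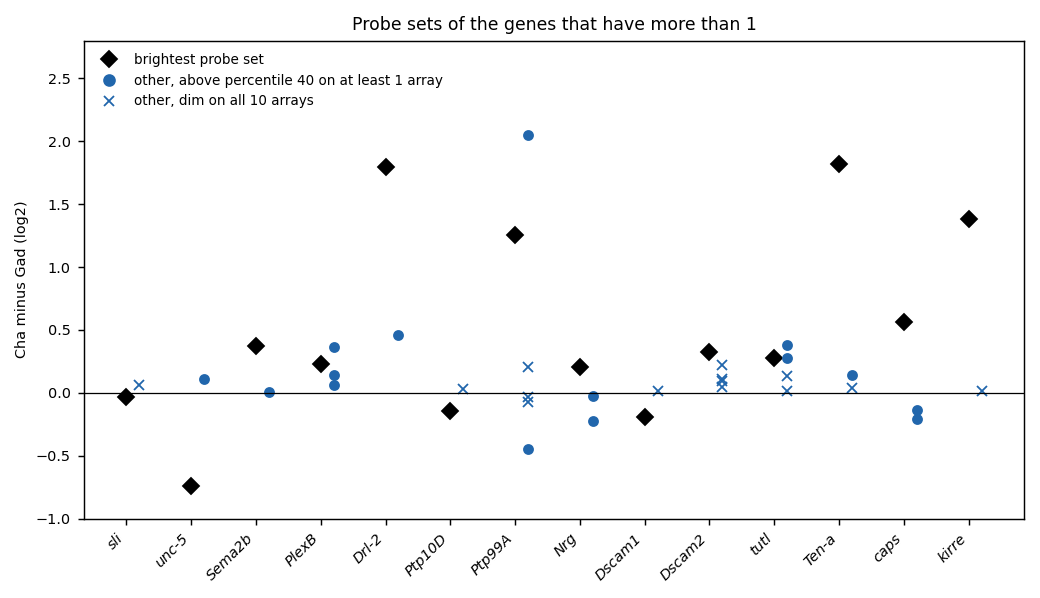
Cha minus Gad on the log2 scale for every probe set of the 14 genes that have more than 1; diamonds mark the brightest probe set of a gene, circles other probe sets above percentile 40 on at least 1 array, and crosses those dim on all 10. The 2 other probe sets that passed belong to Ptp99A (2.05) and Drl-2 (0.46), while those of Ten-a and kirre lie near 0.

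Most fasciclin-type and Beat genes did not pass. beat-Ia encodes a secreted protein that loosens motor axon bundles and binds Side. Its values were 8.23, 8.70, 8.63, 8.37 and 9.34 in Cha arrays and 7.99, 7.81, 7.62, 8.23 and 8.11 in Gad arrays. The groups met at one point, where Cha replicate 1 and Gad replicate 4 were nearly equal. The difference was 0.70 (SE 0.20, adjusted p = 0.0327), and the call held in 4 of the 10 refits with 1 array removed.

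side, whose product is the Beat-Ia receptor partner on muscle and other substrates, was at 4.73 ± 0.14 in Cha and 4.93 ± 0.12 in Gad (SD, n = 5), close to percentile 40 of the arrays (difference -0.20, interval -0.41 to 0.01, adjusted p = 0.188). beat-Ic, at 4.11 in Cha and 3.79 in Gad, was dim on 4 Cha and 5 Gad arrays. It differed by 0.32 (interval -0.07 to 0.72, adjusted p = 0.241). Fas1 (difference -0.23, adjusted p = 0.241), the neuroglian gene Nrg (0.20, adjusted p = 0.565) and the neurotactin gene Nrt (0.07, adjusted p = 0.837) did not pass either. Nrg, which is shared by neurons and epithelia, was at 12.49 ± 0.49 in Cha and 12.29 ± 0.24 in Gad (SD, n = 5), and its 2 other probe sets gave -0.03 and -0.22.

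Among the Dscam, Turtle and cadherin genes, Dscam2 alone passed, at a level too dim to carry weight. Dscam2 encodes a receptor of axon tiling. It had values of 4.77, 5.11, 4.80, 4.72 and 4.72 in Cha arrays and 4.49, 4.47, 4.40, 4.70 and 4.43 in Gad arrays. The groups did not overlap, but 4 Cha and all 5 Gad values were dim, so no fold is given. The difference of 0.33 (adjusted p = 0.0478) held in 3 of the 10 refits with 1 array removed, and the 4 other Dscam2 probe sets, all dim on 10 arrays, gave 0.05 to 0.22. Dscam1, which gives neurites their self-recognition, was at 9.54 ± 0.17 in Cha and 9.74 ± 0.13 in Gad (SD, n = 5; difference -0.20, interval -0.43 to 0.04, adjusted p = 0.242).

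The neuronal cadherin gene CadN and the immunoglobulin gene tutl varied most among Cha arrays. CadN had 9.23, 9.50, 7.93, 7.51 and 7.90 in Cha arrays and 7.48, 7.77, 7.77, 8.34 and 7.94 in Gad arrays. tutl had 9.72, 10.11, 8.61, 8.01 and 8.42 in Cha arrays and 8.47, 8.05, 9.00, 8.97 and 9.00 in Gad arrays. For both genes Cha replicates 1 and 2 lay above all Gad arrays, and the other 3 Cha arrays lay within or below the Gad range. Neither difference passed (CadN 0.56, interval -0.25 to 1.36, adjusted p = 0.332; tutl 0.28, interval -0.57 to 1.12, adjusted p = 0.668).

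The teneurins are transmembrane proteins that match synaptic partners, with Ten-a and Ten-m able to bind each other. Ten-a had values of 11.98, 12.26, 11.72, 11.04 and 11.67 in Cha arrays and 10.02, 9.73, 9.81, 10.08 and 9.91 in Gad arrays. Every Cha array lay well above every Gad array, and the Gad arrays were tightly grouped. The difference was 1.82 (3.54-fold, SE 0.19, adjusted p = 0.000267) and passed in all 10 refits with 1 array removed. A second Ten-a probe set, at 5.70 in Cha and 5.56 in Gad, differed by 0.14 (adjusted p = 0.593), and the last one was dim on all 10 arrays.

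Ten-m had 10.31, 10.36, 10.10, 9.42 and 10.15 in Cha arrays and 9.46, 9.18, 9.51, 10.01 and 9.77 in Gad arrays. Here 4 Cha arrays lay above all Gad arrays, and Cha replicate 4 fell among the low Gad arrays. The difference of 0.48 (interval 0.04 to 0.92, adjusted p = 0.12) did not pass; without Cha replicate 4 it was 0.64 (adjusted p = 0.0162).

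The leucine-rich repeat genes gave no call. caps and trn encode related surface proteins, Capricious and Tartan, and both had higher means in Cha. caps stood at 8.82 ± 0.31 in Cha and 8.25 ± 0.34 in Gad (SD, n = 5; difference 0.56, interval 0.15 to 0.97, adjusted p = 0.0601). trn stood at 9.66 ± 0.28 in Cha and 9.24 ± 0.28 in Gad (SD, n = 5; difference 0.42, interval 0.05 to 0.78, adjusted p = 0.106). caps passed without Cha replicate 2 or Gad replicate 2 and trn without Cha replicate 4, with adjusted p of 0.0428, 0.0427 and 0.0484. The 2 other caps probe sets, of which one was dim on 9 arrays, lay below 0 (-0.14 and -0.21).

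Con, for the motor axon adhesion protein Connectin, had 8.84, 9.09, 8.36, 7.28 and 8.20 in Cha arrays and 7.47, 6.89, 7.82, 8.35 and 8.00 in Gad arrays. Cha replicate 4 again lay low, among the Gad values, and without it the difference of 0.65 (adjusted p = 0.231) was 0.92 (adjusted p = 0.0429). haf had its higher mean in Gad (5.13 in Cha and 5.58 in Gad, difference -0.45, interval -0.82 to -0.08, adjusted p = 0.0907) and passed without Gad replicate 1 (-0.57, adjusted p = 0.0388). conv differed by -0.23 (interval -0.78 to 0.32, adjusted p = 0.57).

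The irre cell recognition genes encode pairs of interacting proteins: Kirre and Roughest on one cell bind Sticks and stones or Hibris on the next. They are best known from myoblast fusion and from eye and optic lobe patterning. kirre and rst, the first kind, passed, and hbs and sns, the second, did not. kirre had values of 8.48, 8.71, 7.97, 7.60 and 8.67 in Cha arrays and 7.18, 6.44, 6.88, 7.20 and 6.81 in Gad arrays. All Cha arrays lay above all Gad arrays. The difference was 1.38 (2.61-fold, SE 0.23, adjusted p = 0.00296) and passed in all 10 refits with 1 array removed, while a dim second probe set gave 0.02.

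rst, which lies in the same chromosome region as kirre with 20 annotated genes between them, had 9.75, 10.08, 9.87, 9.60 and 10.31 in Cha arrays and 9.02, 9.06, 9.33, 9.73 and 9.59 in Gad arrays. The Cha arrays were higher, with Gad replicate 4 above the lowest of them. The difference was 0.58 (SE 0.17, adjusted p = 0.0418), and the call held in 3 of the 10 refits with 1 array removed. hbs had 10.24, 10.42, 9.46, 8.91 and 9.00 in Cha arrays and 9.18, 9.23, 9.45, 9.37 and 9.35 in Gad arrays. Cha replicates 1 and 2 thus lay above the Gad arrays and Cha replicates 4 and 5 below them (difference 0.29, interval -0.32 to 0.90, adjusted p = 0.516). sns was at 5.79 ± 0.23 in Cha and 5.71 ± 0.15 in Gad (SD, n = 5; difference 0.08, interval -0.20 to 0.35, adjusted p = 0.713). Of 14 muscle markers, 0 were higher in Cha and 6 in Gad; the part of muscle cells in the differences of these genes was not tested.

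**Figure D3:**
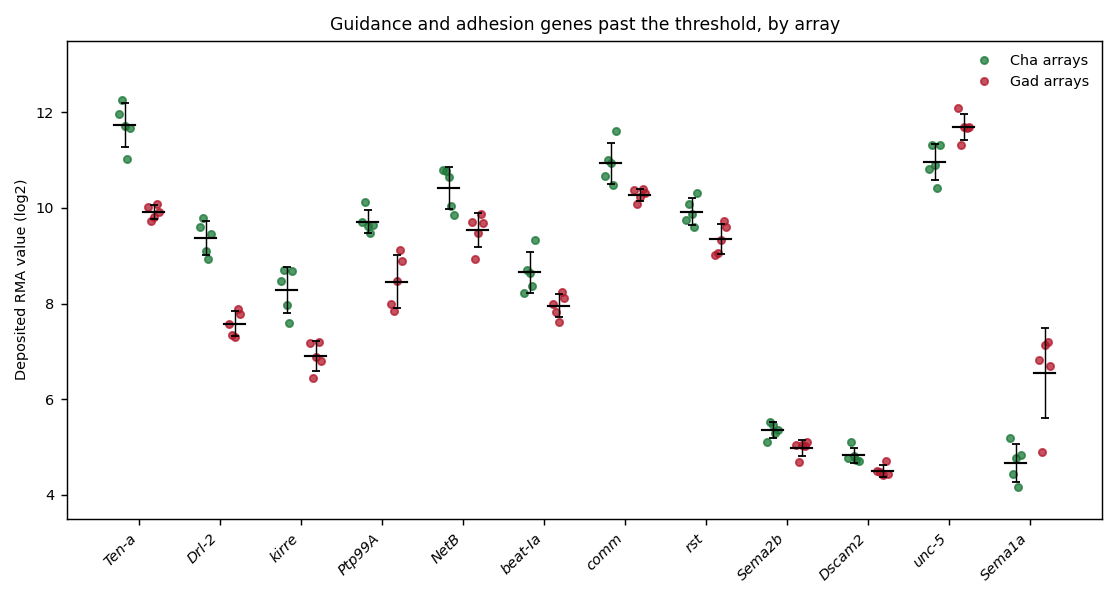
Deposited log2 values of the 12 genes past the threshold on each array, Cha (green, left of each pair) and Gad (red, right), ordered by difference; horizontal bars are means and error bars SD (n = 5). Ten-a, Drl-2, kirre, Ptp99A, comm and Dscam2 show no overlap, and 1 Gad array of Sema1a (4.90) lies among the Cha arrays.

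Like most genes, the members varied more among Cha arrays than among Gad arrays. The SD was higher in Cha for 31 of 37 members, against 76.1% of all genes, and the median SD was 0.38 in Cha and 0.24 in Gad (0.25 in Cha and 0.17 in Gad over all genes). Single arrays stood out in the same way for many members. Of the 5 Cha arrays, replicate 4 was the lowest for 23 of 37 members and replicate 2 the highest for 18, against 24.8% and 18.5% of all genes. Among the Gad arrays, replicate 2 was the lowest for 17 members and replicate 4 the highest for 19, against 23.3% and 20.3% of all genes. comm2, at 8.92, and caps, at 9.10, were among the genes that did not follow in Cha replicate 4. Without Cha replicate 4, 14 members passed toward Cha and 2 toward Gad. Without both Cha replicate 4 and Gad replicate 2, a setting chosen after the values were seen, 7 passed toward Cha and 2 toward Gad, and 8 of the 12 calls remained.

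**Figure D4:**
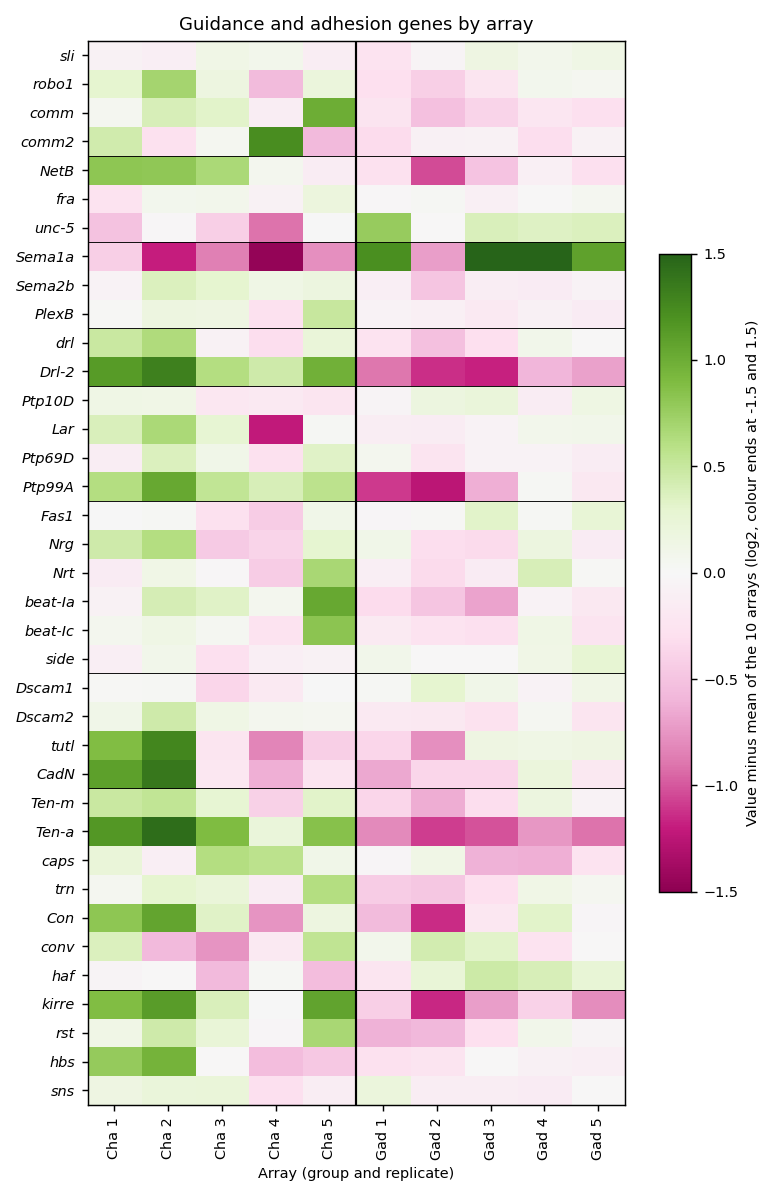
Each of the 37 genes on each array as its value minus the mean of the 10 arrays (log2, green above and pink below, colours ending at -1.5 and 1.5), with Cha arrays left and Gad arrays right of the line and genes in order of role. Ten-a, Drl-2 and kirre are green across most Cha arrays, Sema1a is green on 4 Gad arrays, and tutl, CadN and hbs are green in Cha replicates 1 and 2.

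The members had 29 other probe sets. Of these, 2 passed with Cha higher and 0 with Gad higher, in the fit over all 18769 probe sets, and 14 were dim on all 10 arrays. Over the second and further probe sets of all named genes, 5.83% passed toward Cha and 4.14% toward Gad, 9.97% together. Of the 12 genes called, 7 had another probe set, and for Drl-2 and Ptp99A one of them passed in the same direction.

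Other genes of the same pathways, drawn from lists beside the members, moved in both directions. In all 18 of 116 passed toward Cha and 9 toward Gad, 23.3% together, against 8.21%, 10.2% and 18.5% of all genes. The joint share lay near that of all genes. Only 4 of the 116 were dim on all 10 arrays, against 2459 of 11982 genes. The 18.5% is therefore a low standard for these lists too. By direction, more of these genes passed toward Cha, whereas over all genes more passed toward Gad. The median difference over these genes was 0.10. Of 18 further Beat and Side family genes, 4 passed toward Cha and 0 toward Gad, 22.2% together, with a median of 0.41. side-VIII had 8.09, 8.56, 8.29, 7.75 and 8.21 in Cha arrays and 6.98, 6.57, 6.58, 6.76 and 6.79 in Gad arrays (difference 1.44, adjusted p = 0.000207), and its groups lay wide apart. side-II (0.67, adjusted p = 0.00556), beat-Vb (1.10, adjusted p = 0.00946) and beat-Va (0.85, adjusted p = 0.0439) were the others, the last dim on 4 Gad arrays. A second side-VIII probe set gave 0.27 (adjusted p = 0.159), and 1 of 5 others of side-II passed (0.35, adjusted p = 0.0496).

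Of 22 other guidance ligands and receptors, 2 passed toward Cha and 4 toward Gad (median -0.12). Together this was 27.3%, against 18.5% of all genes. The repulsive cue gene Ephrin was higher in Cha by 0.51 (6.53 ± 0.12 in Cha and 6.02 ± 0.06 in Gad, SD, n = 5, adjusted p = 0.00313). The fibroblast growth factor receptor gene htl (-1.26, adjusted p = 0.00423), the Hedgehog co-receptor gene ihog (-0.80, adjusted p = 0.00833) and the activin-type receptor gene put (-0.77, adjusted p = 0.0128) were higher in Gad. htl is also known from glia and from mesoderm. Of 16 glial markers 1 passed toward Cha and 7 toward Gad, and of 14 muscle markers 0 toward Cha and 6 toward Gad; their part in the htl difference was not tested.

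Of 37 other adhesion genes, 4 passed toward Cha and 2 toward Gad (median -0.03). Together this was 16.2%, below the 18.5% of all genes. The immunoglobulin gene fred had the largest difference of the list, with 9.16 ± 0.68 in Cha and 6.01 ± 0.20 in Gad (SD, n = 5; difference 3.15, adjusted p = 8.42e-05). stan, for the cadherin Flamingo (0.77, adjusted p = 0.00253), and klg (1.11, adjusted p = 0.00595) were higher in Cha, and Dscam4 in Gad (-0.54, adjusted p = 0.00859), though another, mostly dim Dscam4 probe set gave 0.31 (adjusted p = 0.18).

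Of 12 proteoglycan and neurexin-type genes, 33.3% passed, against 18.5% of all genes. The synaptic adhesion gene Nlg2 was higher in Cha (0.78, adjusted p = 0.0355), though other, dim probe sets of it gave 0.02 and 0.09. In Gad, 3 genes were higher. These were trol, the perlecan of basement membranes (-1.48, adjusted p = 0.00367), and the heparan sulphate synthesis genes sfl (-0.75, adjusted p = 0.00603) and botv (-0.70, adjusted p = 0.044). Further bright trol probe sets gave -1.58 and -1.65, and both passed.

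Of 27 cytoplasmic effectors, 7 passed toward Cha and 0 toward Gad, 25.9% against 18.5% of all genes in either direction (8.21% toward Cha and 10.2% toward Gad), with a median of 0.19. They included trio (0.84, adjusted p = 0.0106), an exchange factor that acts below Frazzled and Lar. The microtubule protein gene futsch was also higher (1.30, adjusted p = 0.00466), but 2 dimmer probe sets of it gave 0.09 and -0.04.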

How the data were processed

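The authors deposited log2 values made with RMA, per the submitters' processing notes; the sources used here give neither its version nor a genome build. It brings all arrays to 1 distribution, which removes shifts shared by most genes, and compresses dim values. Of 18952 probe sets, 183 were controls, 13647 had 1 gene symbol, 402 several (none named) and 4720 none. Scanner output and detection calls were not analysed here. The number of arrays limits the precision. The labels do not say that the 5 arrays of a group came from separate cultures, so p-values measure the spread between these arrays, which may be technical.

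Differences were fitted in R 4.3.3 by limma 3.58.1 (2-sided, lmFit then eBayes, no covariates), on 1 probe set per gene for genes and on all probe sets for further ones. The fit was repeated under other normalizations, filters, priors, weights, samples, thresholds and an exact permutation test. The fitting step was tested on simulated data. Members and lists were chosen with earlier results of these data known. Every array's values are given for called members. Among the rest, group means or array values are given for the 2 with the smallest p per role and partners of called members. Array values of further uncalled members were added after they were seen. Up to 4 called genes are named per pathway list, less those not reported here. Gaps between 3′ and 5′ control probe sets were compared by exact permutation over 3 controls: GAPDH had 2.91 ± 0.38 in Cha and 3.41 ± 0.19 in Gad (SD, n = 5, exact p = 0.0317, adjusted 0.0951), actin differed by -0.01 (exact p = 0.984) and eIF4a by 0.27 (exact p = 0.214).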

Additional observations from a re-analysis of the deposited data

Results flagged for a closer look

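Dixon's test (gap over range above 0.71), run on each of the 37 members in each group, found 1 array far from the others of its group 5 times, in 4 members. It flags about 1 group in 20 by chance. Sema1a was at 4.90 in Gad replicate 2, with the other Gad arrays from 6.70 to 7.19. Sema2b was at 4.68 on the same array, with the others from 5.01 to 5.11. Dscam2 was at 5.11 in Cha replicate 2, with the others from 4.72 to 4.80, and at 4.70 in Gad replicate 4, with the others from 4.40 to 4.49. Ten-m was at 9.42 in Cha replicate 4, with the others from 10.10 to 10.36.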

How the results depend on the processing

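All 12 called members kept their sign in all 251 combinations of gene and alternative listed, and 75 of these ended a call. The cause was not tested. Alternatives that changed only the prior, block, dim filter, adjustment or test left each difference as it was, so its sign could not change there. Leaving out 1 array left 4 to 14 members passing toward Cha and 1 to 2 toward Gad, 525 to 1252 and 852 to 1362 of all genes, a median difference of the members of 0.21 to 0.38, and 1 to 3 other probe sets higher in Cha and 0 to 1 in Gad. Members higher in Cha were 4 without Cha replicate 3 or Gad replicate 3, 5 without Cha replicate 2 or Gad replicate 1 or 5, and 6 without Gad replicate 2. Ten-a, Drl-2, kirre, Ptp99A and Sema1a passed in each of these 10 fits. The GAPDH gap differed by -0.61 to -0.39 and passed without Cha replicate 1 or 2 (exact permutation, adjusted p = 0.0476).

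Without Cha replicate 2 and Gad replicate 5, which carry the same letter code, 4 members passed toward Cha and 0 toward Gad (382 and 673 of all genes). Correlations of same-numbered deviations (-0.40 to 0.03) gave no sign of pairing, but they cannot show that same-numbered arrays were prepared separately. With the replicate number as a block, 4 and 1 members passed (352 and 761 of all genes). At an adjusted p under 0.01, 4 and 1 passed (304 and 566), as with a difference of at least 1 (188 and 516). In each of these 4 settings, and without dim probe sets, 1 other probe set was higher in Cha. Averaged probe sets left 8 members higher in Cha and 1 in Gad. A second quantile normalization, cyclic loess and array weights each gave 8 and 2, and median centring gave 10 and 2. The exact permutation test gave 0 and 0 calls, for all genes too, since its smallest adjusted p was 0.0586 (3618 genes had an unadjusted p under 0.05); 5 arrays a group allow no p under 0.00794.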
